A study of Mus musculus with 15 samples.

Results

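The genes described here encode the subunits of the proteasome and were measured by RNA sequencing in the large intestine of mice. They are the protein-coding genes of the GRCm38 annotation whose symbol begins with Psma, Psmb, Psmc, Psmd or Psme and a number, without pseudogenes, and that have a value in all 15 libraries. The symbol found 45 genes, and 41 of them were kept out of 43316 genes with a value in every library. A value is the FPKM (fragments corrected for transcript length and for library size) of the gene's own row or, where a library's table gives none, of the locus assembled in that library over the same span. Own rows alone would have left 4 of the 45 genes, which is why the assembled loci were counted as rows. Of the 615 values of the 41 genes, 207 came from an own row and 408 from an assembled locus. Within a gene the kind of row can change between libraries. It went with being at 0, as 53.6% of own-row values and 13.7% of assembled-locus values were 0. Psma2 and Psmd13 lacked a value in 2 libraries and 1 library, Psmd1 and Psme2b in all 15. Psmc3ip fits the symbol rule and was kept, but it is named as an interactor of an ATPase subunit and is not a proteasome subunit.

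Male C57Bl/6 mice aged 4 weeks formed 5 groups with 3 libraries each. The vehicle was Cremophor EL containing 10% DMSO, given alone to the first group and with an agent to the 4 others. Cymopol, a brominated hydroquinone of a green alga, was given at 1.4 mmol/kg (high dose, replicates 11, 12 and 14) and at 0.3 mmol/kg (low dose, replicates 33, 34 and 35). The other agent was a non-polar extract of algae, at 1.0 g/kg (high dose, replicates 21, 23 and 25) and at 0.3 g/kg (low dose, replicates 26, 27 and 29). Dosing was by gavage on 3 days, 24 h apart, and the tissue was harvested 12 h after the final dose. The vehicle libraries are replicates 2, 4 and 5. Values below follow the replicates in these orders. Nothing in the labels ties each library to a mouse of its own, so p-values cover the spread among these samples, which may be technical.

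The proteasome degrades proteins that carry ubiquitin chains. Its barrel-shaped 20S core is built of rings of alpha subunits (Psma genes) around rings of beta subunits (Psmb genes), of which Psmb5, Psmb6 and Psmb7 carry the proteolytic sites. The 19S cap, made of ATPases (Psmc genes) and non-ATPase subunits (most Psmd genes), binds, deubiquitinates, unfolds and threads the substrates. Interferon induces the immunoproteasome subunits Psmb8, Psmb9 and Psmb10, which replace Psmb5, Psmb6 and Psmb7 respectively, and the PA28 activators Psme1 and Psme2, and these forms supply peptides for MHC class I presentation. When proteasome activity is low, the transcription factor NRF1 (Nfe2l1) raises most subunit genes together through antioxidant response elements, the same kind of element that NRF2 binds after exposure to electrophiles. The mucosa of the large intestine expresses both the constitutive and the immunoproteasome genes.

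The libraries differed widely in depth. The estimated number of fragments in protein-coding genes was 288316, 342028 and 302879 at the high cymopol dose and 174904, 556449 and 279240 at the high extract dose. The vehicle libraries held 51766, 226553 and 25233, the low cymopol dose 31853, 59575 and 183362, and the low extract dose 28513, 106747 and 71302. Of the 37 proteasome genes that passed the filter on low values (FPKM of at least 1 in at least 3 libraries), 15, 7 and 23 stood at 0 in vehicle, 2, 1 and 0 at the high cymopol dose, 3, 0 and 0 at the high extract dose, 22, 12 and 2 at the low cymopol dose and 18, 2 and 7 at the low extract dose. The 6 high-dose libraries thus held few zeros, and the most zeros stood in the shallowest libraries of the other groups. A value listed at 0 need not mean that the gene was silent. Of 167 zeros among the 41 kept genes, 18 had another assembled locus above 0 wholly inside the gene in that library. Whether such a locus lay in an exon or on the gene's strand was not checked. In all, 43 zeros (25.7%) had another locus above 0 touching the gene. The touching loci that are not inside the gene reach beyond it and may carry a neighbour's signal. The colonic epithelium markers Vil1, Epcam and Cdx2 were above 0 in all 15 libraries. Of the 11 such markers with a value, Tff3 was listed at 0 in vehicle replicate 5. Slc26a3 and Tff3 were listed at 0 in extract low replicate 26.

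**Figure D1:**
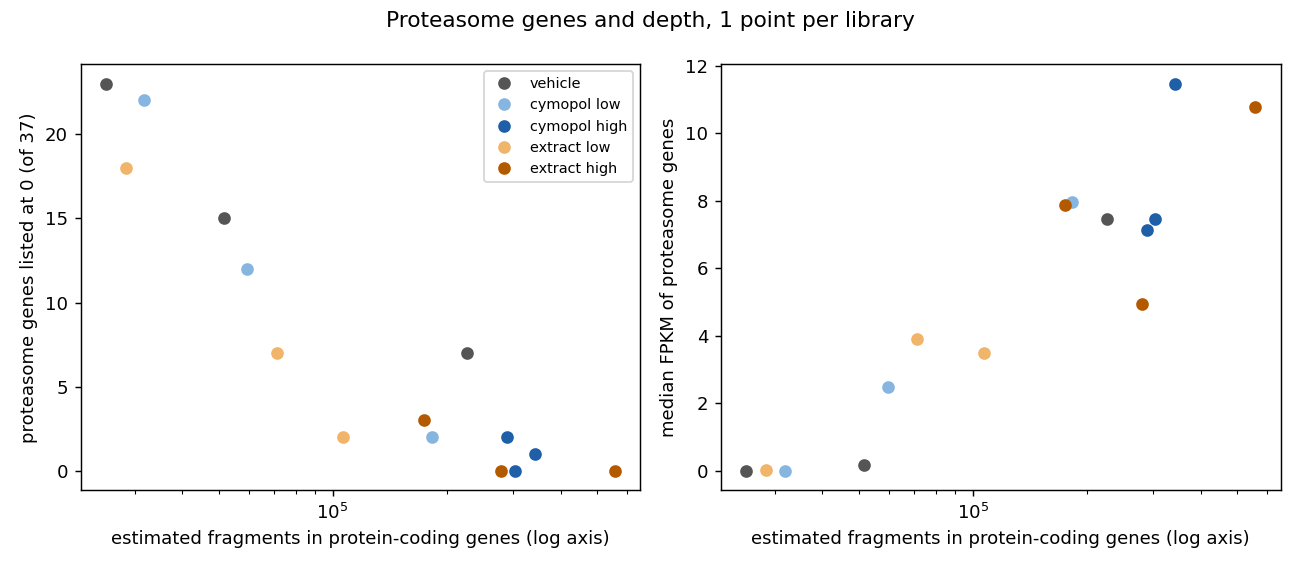
Estimated fragments of each library (x axis, log scale) against the number of the 37 tested proteasome genes listed at 0 (left) and against their median FPKM (right), 1 point per library, coloured by group. The 3 shallowest libraries have 18 to 23 genes at 0 and a median near 0, while the 6 high-dose libraries have at most 3 genes at 0.

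Because FPKM of many genes is 0 at such depth, the share of fragments that fell on proteasome genes was also taken. The 41 genes held 17.4, 25.7 and 26.5 fragments of every 10000 in the vehicle libraries, 27.6, 23.2 and 20.3 at the high cymopol dose and 29.3, 27.7 and 22.1 at the high extract dose. At the low extract dose they held 21.2, 21.8 and 19.9, and at the low cymopol dose 4.44, 13.9 and 23.0. The vehicle and high-dose ranges overlapped, and replicates 33 and 34 of the low cymopol dose lay below all other libraries. On the FPKM scale the medians over the 37 tested genes were 0.166, 7.47 and 0 in the vehicle libraries, 7.14, 11.5 and 7.46 at the high cymopol dose and 7.87, 10.8 and 4.93 at the high extract dose. Vehicle replicate 4, the deepest of its group, therefore had a median inside the high-dose range, and the 2 shallow vehicle libraries did not. In whole tissue, fewer cells of a type and less RNA per cell cannot be told apart.

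Promoter sequences were read for 34 of the 41 genes, as the 250 bases before the RefSeq start (GRCm38.p6). The core of the antioxidant response element, TGACNNNGC on either strand, was found in 5 of the 34 (14.7%), in 13.8% of the 8575 tested genes with a promoter and in 10.2% of all 32851 promoters. Its carriers were Psmb5, Psmb6, Psmc6, Psmd12 and Psmd9. The ETS motif CCGGAAG was found in 12 of 34 (35.3%), against 15.2% of tested genes and 6.91% of all promoters, and the NF-Y box CCAAT in 14 of 34 (41.2%), against 39.8% and 33.8%. The interferon-stimulated response element (GAAA, any 2 bases, GAAA) was found in 3 (8.82%; Psmb3, Psmd4 and Psmd9), against 3.13% and 2.98%, and the gamma-activated site TTCNNNGAA in Psmb8 alone (2.94%), against 6.85% and 7.02%. No pair of these motifs overlapped in the sequences below. The sequences shown are those of Psmb5 and Psmb6, constitutive catalytic subunits that carry the antioxidant response element core, and of Psmb8, the immunoproteasome counterpart of Psmb5. Psmc6, an ATPase subunit, is shown as a carrier of both this element and the ETS motif. Psmd12 carries both as well and is not shown. Capitals mark the antioxidant response element core in Psmb5, Psmb6 and Psmc6 (first run in Psmc6, on the opposite strand), the ETS motif in Psmc6 (second run) and the gamma-activated site in Psmb8.
Psmb5 (chr14:54617996-54618245, minus strand): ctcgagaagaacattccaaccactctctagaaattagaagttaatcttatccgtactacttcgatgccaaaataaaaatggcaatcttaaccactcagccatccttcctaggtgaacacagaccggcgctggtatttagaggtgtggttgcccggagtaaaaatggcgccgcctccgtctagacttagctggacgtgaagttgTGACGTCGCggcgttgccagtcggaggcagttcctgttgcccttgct
Psmb6 (chr11:70525107-70525356, plus strand): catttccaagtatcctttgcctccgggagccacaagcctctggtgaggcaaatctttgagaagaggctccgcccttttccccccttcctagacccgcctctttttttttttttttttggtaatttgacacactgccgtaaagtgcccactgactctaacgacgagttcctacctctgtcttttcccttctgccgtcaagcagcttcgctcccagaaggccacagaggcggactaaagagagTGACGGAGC
Psmb8 (chr17:34197945-34198194, plus strand): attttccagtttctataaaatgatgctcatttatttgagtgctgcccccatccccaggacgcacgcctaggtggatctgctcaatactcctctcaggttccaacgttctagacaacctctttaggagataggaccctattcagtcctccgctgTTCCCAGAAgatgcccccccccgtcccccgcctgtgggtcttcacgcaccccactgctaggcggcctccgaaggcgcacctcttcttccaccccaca
Psmc6 (chr14:45329574-45329823, plus strand): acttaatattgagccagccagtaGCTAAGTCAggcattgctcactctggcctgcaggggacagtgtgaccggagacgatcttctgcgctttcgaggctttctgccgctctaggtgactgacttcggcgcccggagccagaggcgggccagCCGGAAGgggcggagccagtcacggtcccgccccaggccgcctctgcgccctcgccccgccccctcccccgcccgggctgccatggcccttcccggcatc

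The core element ended 39 bases before the start of Psmb5 and directly at the base before the start of Psmb6. These matches are letters in a window and were not tested for binding. The 5 carriers had no common size of difference: from vehicle to the high cymopol dose, mean log2(FPKM + 1) differed by 2.42 in Psmb5 and 3.05 in Psmb6, by 0.67 in Psmc6, 0.06 in Psmd9 and 0.03 in Psmd12.

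No proteasome gene passed the test in any of the 6 comparisons. The test was limma's moderated test on log2(FPKM + 1) over all 11505 genes that passed the filter, two-sided, with Benjamini-Hochberg adjusted p under 0.05 as the call. An exact test of 3 against 3 libraries cannot go below p = 0.1, so only the fit across genes could have passed. At the high cymopol dose against vehicle, 0 of 37 members were called beside 0.0174% of all genes (2 genes). The smallest adjusted p of a member was 0.243 (Psmb2). Without adjustment, 7 members had p under 0.05, all higher at the high dose (18.9%, against 12.4% of all genes higher), and voom on estimated fragments called 0 members among 121 genes. Of the 37 differences, 33 were above 0 (89.2%, against 79.5% of all genes), and their median was 1.52 on the log2 scale, beside 0.81 over all genes tested. The 7 genes whose 3 high-dose libraries all lay above the 3 vehicle libraries (18.9%, against 19.5% of all genes) were Psma4, Psma6, Psmb2, Psmb7, Psmc2, Psmc5 and Psme2. That share was near the background.

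At the high extract dose against vehicle, 0 members were called beside 0.00869% of all genes (1 gene), and the smallest adjusted p was 0.314 (Psma4). Without adjustment, 12 of 37 had p under 0.05, all higher (32.4%, against 10.5% of all genes higher), and voom called 0 members among 140 genes. The differences were above 0 in 29 of 37 (78.4%, against 77.1%) with a median of 1.35 beside 0.71 over all genes. The 8 genes without overlap (21.6%, against 19.3%) were Psma4, Psma6, Psmb2, Psmb9, Psmb10, Psmc2, Psmc5 and Psme2. Both high doses were set against the same 3 vehicle libraries, so the names that recur in the 2 comparisons are not independent.

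These differences changed with the shallow vehicle libraries. Without vehicle replicate 2 the members' median at the high cymopol dose was 0.90 (0.47 over all genes) and that at the high extract dose 0.98 (0.38 over all genes). Without vehicle replicate 5, the shallowest library, they were 1.04 (0.85 over all genes) and 1.22 (0.75 over all genes), so that at the high cymopol dose the excess of the members over all genes was 0.19 in place of 0.71. With the 6 libraries under 100000 estimated fragments left out (an alternative added after seeing the data, in which vehicle replicate 4 stands alone and is assumed to vary like the other groups), the members' median was -0.20 at the high cymopol dose (0.23 over all genes) and 0.042 at the high extract dose (0.14 over all genes). In that fit 1 member was called in each comparison, Psmb5, with differences of 4.00 ± 0.67 (SE, limma adjusted p = 0.0371) and 4.37 ± 0.67 (adjusted p = 0.0284). Psmb5 is listed at 0 in vehicle replicate 4, so that call rests on 1 zero. Under median-of-ratios scaling, which moved the median of all genes from 0.81 to 0.24 and from 0.71 to 0.25, the members' medians were 0.65 and 0.64.

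At the low doses the members stood closer to vehicle. At the low cymopol dose 0 members were called (0.0% of all genes), 1 of 37 had p under 0.05 without adjustment (2.7%, against 3.89% of all genes higher) and 1 had no overlap (2.7%, against 3.89%); that gene was Psma7 in both counts. The median difference was 0.35 beside 0.23 over all genes, and 21 of 37 differences were above 0. That median changed sign with single libraries, and the median over all genes (in brackets) often moved with it. It was -0.056 (-0.050) without vehicle replicate 2, -0.064 (0.28) without vehicle replicate 5 and -0.32 (-0.041) without cymopol low replicate 35. Without vehicle replicate 4 it was 0.95 (0.60), without cymopol low replicate 33 1.01 (0.54) and without replicate 34 0.20 (0.17). At the low extract dose 0 members were called (0.0% of all genes), 0 had p under 0.05 without adjustment (against 1.11% higher) and 0 were without overlap (against 1.23%). The median was 0.24 beside -0.14 over all genes, with 20 of 37 above 0. It too changed sign, to -0.49 without vehicle replicate 2 (-0.50 over all genes) and -0.34 without extract low replicate 27 or 29 (-0.39 and -0.36 over all genes). In the libraries of at least 100000 fragments it was -0.78 (-0.20 over all genes). It was 0.54 without vehicle replicate 4 (0.23 over all genes) and 0.66 without extract low replicate 26 (0.24 over all genes). Neither low-dose median thus has a stable direction. Voom called no gene in either low-dose comparison.

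Between doses, 0 members were called from low to high cymopol (0.00869% of all genes, 1 gene), 2 had p under 0.05 without adjustment (5.41%, against 5.35% higher) and 4, Psmb1, Psmb3, Psmb4 and Psmb7, had no overlap (10.8%, against 9.74%). The median was 1.15 beside 0.59 over all genes, and 33 of 37 differences were above 0. From low to high extract, 0 members were called (0.00869% of all genes, 1 gene), 3 had p under 0.05 (8.11%, against 7.09% higher) and 9 had no overlap (24.3%, against 20.9%). All 37 differences were above 0 there, beside 88.0% of all genes, with a median of 1.22 beside 0.89. Voom called 0 members among 4 and 2 genes in these 2 comparisons. With the libraries under 100000 fragments left out, the members' median was -0.036 between the cymopol doses and 0.67 between the extract doses (0.45 over all genes). Leaving out the shallowest low-dose library alone, cymopol replicate 33 or extract replicate 26, brought the medians to 0.48 and 0.57 (0.27 and 0.45 over all genes).

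**Figure D2:**
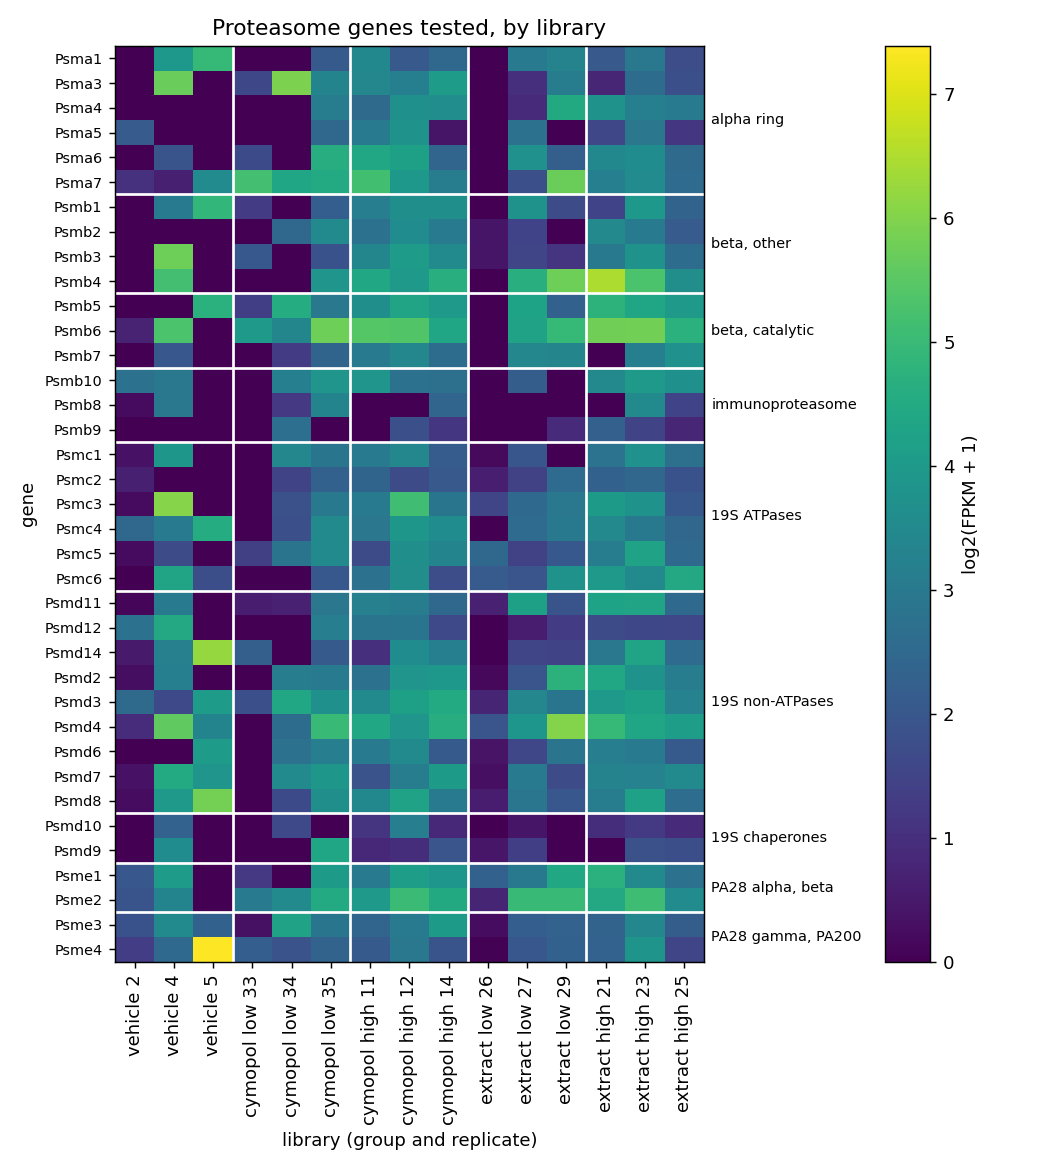
Heat map of log2(FPKM + 1) for the 37 tested proteasome genes (rows, in their classes) in the 15 libraries (columns, by group). Dark columns, in which most genes are at or near 0, are vehicle replicates 2 and 5, cymopol low replicate 33 and extract low replicate 26, and the 6 high-dose columns are filled for nearly every gene.

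The alpha ring, which gates entry to the core, had 6 tested genes (Psma1, Psma3, Psma4, Psma5, Psma6 and Psma7), with a median difference of 2.00 at the high cymopol dose and 1.27 at the high extract dose. Psma4 (ENSMUSG00000032301, chromosome 9, 54950790 to 54958030) had FPKM of 0, 0 and 0 in the vehicle group, 4.90, 12.2 and 11.4 at the high cymopol dose, 12.7, 8.12 and 7.03 at the high extract dose, 0, 0 and 7.55 at the low cymopol dose and 0, 0.896 and 21.5 at the low extract dose. It was listed at 0 in all 3 vehicle libraries and above 0 in all 6 high-dose libraries, so the high-dose and vehicle values did not overlap. The differences were 3.30 ± 1.10 (SE, adjusted p = 0.259) at the high cymopol dose and 3.32 ± 1.10 (adjusted p = 0.314) at the high extract dose, and with only zeros in the vehicle group their size depends on the pseudocount of 1, as it does for Psmb2, Psmb9 and Usp14 below. Psma6 had FPKM of 0, 2.81 and 0 in the vehicle group, 20.2, 17.5 and 4.32 at the high cymopol dose, 10.0, 11.1 and 4.93 at the high extract dose, 2.14, 0 and 23.5 at the low cymopol dose and 0, 12.3 and 3.70 at the low extract dose. Every high-dose value of Psma6 lay above the 3 vehicle values, by 3.03 ± 1.18 (adjusted p = 0.299) for cymopol and 2.56 ± 1.18 (adjusted p = 0.407) for the extract.

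Psma7 showed its widest separation at the low cymopol dose. Its FPKM was 1.07, 0.583 and 10.8 in the vehicle group, 34.4, 14.3 and 7.58 at the high cymopol dose, 8.04, 10.8 and 5.03 at the high extract dose, 35.4, 19.6 and 22.0 at the low cymopol dose and 0, 2.50 and 51.7 at the low extract dose. All 3 low-dose cymopol libraries, shallow ones included, lay above the vehicle libraries, a difference of 2.93 ± 1.25 with an adjusted p of 0.799. Summed over the 3 libraries of a group, the vehicle values rest on 0.52 estimated fragments and the low-dose cymopol values on 13.3. Psma3 was 0, 51.5 and 0 in the vehicle group, 9.71, 8.19 and 16.1 at the high cymopol dose, 0.723, 5.11 and 2.50 at the high extract dose, 2.02, 60.0 and 9.08 at the low cymopol dose and 0, 1.02 and 7.73 at the low extract dose, and 1 vehicle library (replicate 4, 51.5) and 1 low-dose cymopol library (replicate 34) exceeded all others, with overlap in every comparison. Psma1 was lower in the treated groups, not past the test, with FPKM of 0, 14.3 and 29.7 in the vehicle group, 10.0, 3.16 and 4.61 at the high cymopol dose, 3.21, 6.71 and 2.38 at the high extract dose, 0, 0 and 3.27 at the low cymopol dose and 0, 7.25 and 8.87 at the low extract dose. Its 2 highest values stood in the vehicle group, and its differences from vehicle, -0.29 and -0.70 at the high cymopol and extract doses and -2.26 at the low cymopol dose, had overlapping groups. Psma5 ranged from 0 to 12.5 over the 15 libraries, with differences of 1.69 and 1.19 at the 2 high doses. Psma8, the testis alpha subunit, was above 0 in 1 library only, 0.675 in extract low replicate 27.

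The non-catalytic beta subunits Psmb1, Psmb2, Psmb3 and Psmb4 shape the beta rings and had median differences of 2.18 and 2.04 at the high cymopol and extract doses. Psmb2 (ENSMUSG00000028837, chromosome 4, 126677630 to 126709714) had FPKM of 0, 0 and 0 in the vehicle group, 5.76, 11.2 and 7.46 at the high cymopol dose, 10.3, 7.17 and 3.37 at the high extract dose, 0, 4.54 and 10.4 at the low cymopol dose and 0.325, 1.80 and 0 at the low extract dose. Its vehicle values were all listed at 0 and its 6 high-dose values all lay above 3, which gave the smallest p of the family at the high cymopol dose, a difference of 3.15 ± 0.99 (adjusted p = 0.243), and 2.88 ± 0.99 (adjusted p = 0.316) at the high extract dose. In vehicle replicate 4 a piece of 146 bases inside Psmb2 was assembled on its own with FPKM 117. Whether that piece lies in an exon or on the strand of Psmb2 was not checked, so the zero there is uncertain. Psmb4 had FPKM of 0, 35.3 and 0 in the vehicle group, 20.4, 14.7 and 23.7 at the high cymopol dose, 88.3, 38.5 and 11.5 at the high extract dose, 0, 0 and 13.5 at the low cymopol dose and 0, 24.4 and 53.1 at the low extract dose. Vehicle replicate 4 lay within the high-dose values and the other 2 vehicle libraries were listed at 0. Its difference was 3.41 ± 1.44 (adjusted p = 0.383) at the high extract dose against vehicle and 3.05 ± 1.44 (adjusted p = 0.843) from low to high cymopol, where the groups did not overlap. Psmb1 and Psmb3 differed by 0.86 and 1.74 at the high cymopol dose and by -0.06 and 1.20 at the high extract dose.

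The catalytic beta subunits are Psmb6 (caspase-like site), Psmb7 (trypsin-like site) and Psmb5 (chymotrypsin-like site, the target of bortezomib). Psmb6 (ENSMUSG00000018286, chromosome 11, 70525367 to 70527858) had the highest mean FPKM of the core genes over the 15 libraries. Its FPKM was 0.655, 38.4 and 0 in the vehicle group, 42.4, 40.5 and 19.5 at the high cymopol dose, 53.9, 55.3 and 25.4 at the high extract dose, 14.5, 9.55 and 53.4 at the low cymopol dose and 0, 17.99 and 30.0 at the low extract dose. Vehicle replicate 4 lay among the high-dose values, so the groups overlapped, and the differences were 3.05 ± 1.37 (adjusted p = 0.349) for high cymopol and 3.43 ± 1.37 (adjusted p = 0.367) for high extract. The cymopol difference turned to -0.24 with the shallow libraries left out. Psmb5 (ENSMUSG00000022193, chromosome 14, 54614119 to 54618022) had FPKM of 0, 0 and 25.4 in the vehicle group, 11.8, 18.99 and 14.9 at the high cymopol dose, 26.5, 19.7 and 14.7 at the high extract dose, 1.59, 22.9 and 6.75 at the low cymopol dose and 0, 18.3 and 3.87 at the low extract dose. Vehicle replicate 5, the shallowest library, gave the only vehicle value above 0, and it rests on less than 1 estimated fragment. The differences of Psmb5 were 2.42 ± 1.28 (adjusted p = 0.412) and 2.80 ± 1.28 (adjusted p = 0.407). Psmb7 had FPKM of 0, 3.02 and 0 in the vehicle group, 7.07, 9.66 and 5.16 at the high cymopol dose, 0, 8.21 and 12.3 at the high extract dose, 0, 1.48 and 4.24 at the low cymopol dose and 0, 9.80 and 9.38 at the low extract dose. Every high-dose cymopol library exceeded every vehicle library (2.35 ± 1.12, adjusted p = 0.368) and every low-dose cymopol library, while 1 high-dose extract library was listed at 0.

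Of the 3 immunoproteasome subunits, Psmb8 and Psmb9 were low and sparse, with mean FPKM of 2.26 and 1.10 over the 15 libraries. Psmb10, at 6.65, lay above Psmb7 (4.69) and below Psmb5 (12.4) and Psmb6 (26.8). Psmb8 (ENSMUSG00000024338, chromosome 17, 34197721 to 34201454), which replaces Psmb5, had FPKM of 0.166, 6.72 and 0 in the vehicle group, 0, 0 and 4.34 at the high cymopol dose, 0, 10.4 and 1.81 at the high extract dose, 0, 1.35 and 9.03 at the low cymopol dose and 0, 0 and 0 at the low extract dose. It was listed at 0 in 8 of the 15 libraries and the groups overlapped in every comparison, with differences of -0.25 ± 0.96 (adjusted p = 0.915) at the high cymopol dose and 0.61 ± 0.96 (adjusted p = 0.815) at the high extract dose. In vehicle replicate 5 and extract low replicate 27 another assembled locus, with FPKM 80.6 and 9.57, overlaps Psmb8. It starts inside the gene, at 34199316, and runs past the gene's end at 34201454, so that the zeros there are uncertain. Psmb9, which replaces Psmb6, had FPKM of 0, 0 and 0 in the vehicle group, 0, 2.47 and 1.24 at the high cymopol dose, 3.78, 1.83 and 0.749 at the high extract dose, 0, 5.50 and 0 at the low cymopol dose and 0, 0 and 0.858 at the low extract dose. All 3 high-extract values exceeded the vehicle zeros, by 1.52 ± 0.73 (adjusted p = 0.418). The Psmb9 values at the 2 high doses rest on 1.7 and 4.2 estimated fragments summed over the 3 libraries of a group, and its start lies next to that of Tap1, whose assembled locus overlaps it. Psmb10 (ENSMUSG00000031897, chromosome 8, 105935735 to 105938444), which replaces Psmb7, was the highest of the 3, with FPKM of 5.81, 6.74 and 0 in the vehicle group, 13.5, 5.83 and 5.65 at the high cymopol dose, 10.1, 15.03 and 12.2 at the high extract dose, 0, 8.05 and 13.3 at the low cymopol dose and 0, 3.50 and 0 at the low extract dose. The high-extract values lay above all vehicle values (1.82 ± 1.13, adjusted p = 0.527) and above all low-extract values (3.01 ± 1.13, adjusted p = 0.638), and the high-cymopol values overlapped with vehicle (1.21 ± 1.13, adjusted p = 0.631; -0.061 under median-of-ratios scaling). Psmb11, the thymus-specific counterpart, was above 0 in vehicle replicate 2 only, at 0.0342.

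**Figure D3:**
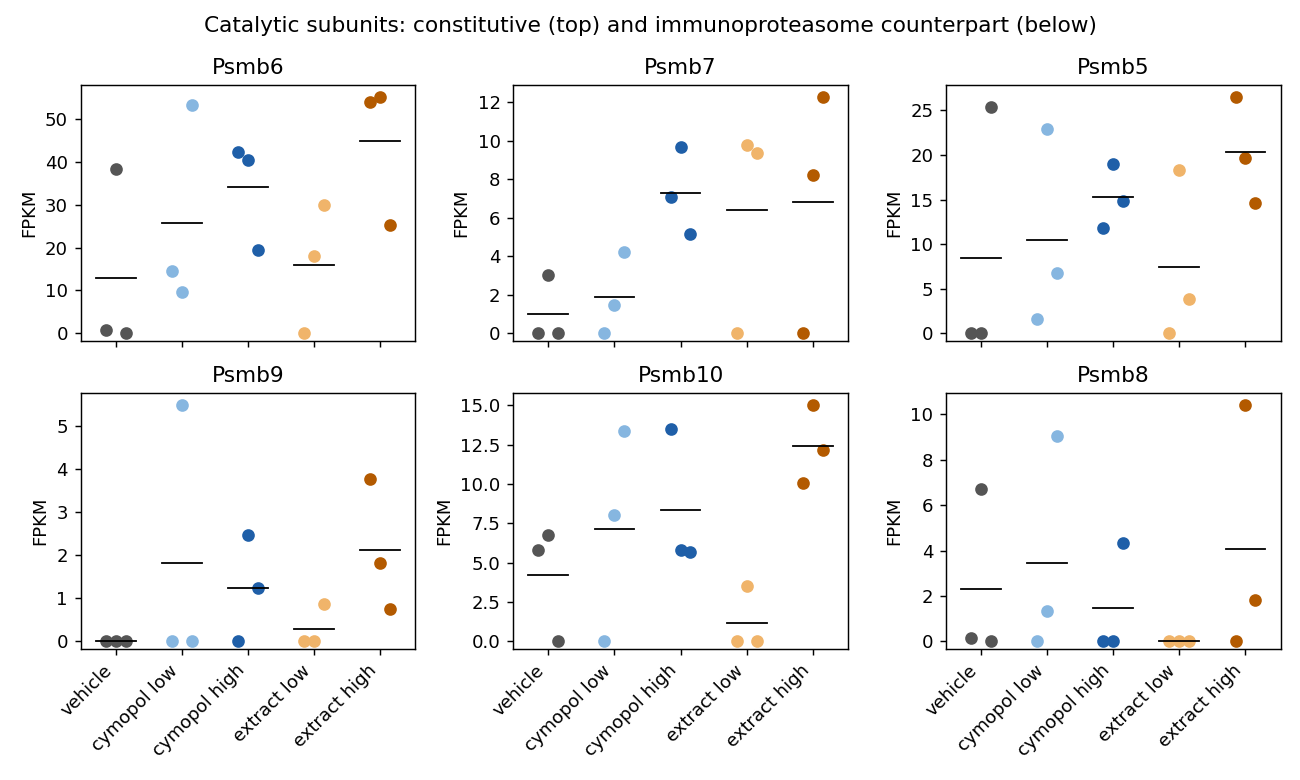
FPKM of the 3 constitutive catalytic subunits (top row) and the immunoproteasome subunit that replaces each (bottom row) by group, with 1 point per library and a line at the group mean. Psmb6 reaches 55.3 in a high-extract library and the immunoproteasome subunits stay at or below 15.03 in all 15 libraries. Psmb7 stays lower still, at or below 12.3, and Psmb10 holds the value of 15.03.

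The immunoproteasome share, the summed FPKM of Psmb8, Psmb9 and Psmb10 as a percentage of these and Psmb5, Psmb6 and Psmb7 together, was 18%, 10.7% and 22.1% at the high cymopol dose and 14.7%, 24.7% and 22.0% at the high extract dose. In the deep low-dose and vehicle libraries it was 25.8% (cymopol low replicate 35), 7.05% (extract low replicate 27) and 24.5% (vehicle replicate 4). The shallow libraries spread from 0% to 90.1%, and extract low replicate 26 had no fragment on any of the 6 genes. Of the 6 high-dose shares, 5 lay below that of vehicle replicate 4 and 1 just above it, and no test was made with 1 deep vehicle library. Vehicle replicate 4 also carried the most lymphocyte RNA: Ms4a1 was 16.9 there and at most 0.639 in the other 14 libraries, and Ptprc was 17.4 against at most 4.49. The 12 immune cell markers summed to 2.8 to 682 FPKM in vehicle, 15.1 to 122 at the high cymopol dose and 4.9 to 51.2 at the high extract dose. From 1 to 9 of these markers were listed at 0 in the vehicle libraries, 1 to 7 at the high cymopol dose and 1 to 8 at the high extract dose. Their part in the immunoproteasome values was not tested.

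The 19S ATPases Psmc1 to Psmc6 form the ring that unfolds substrates, and their median differences were 1.51 at the high cymopol dose and 1.81 at the high extract dose. Psmc5 had FPKM of 0.162, 2.23 and 0 in the vehicle group, 2.25, 11.8 and 9.08 at the high cymopol dose, 7.82, 18.02 and 4.76 at the high extract dose, 1.66, 6.22 and 10.3 at the low cymopol dose and 4.58, 1.77 and 3.10 at the low extract dose. All 6 high-dose values exceeded the vehicle values, the lowest only narrowly (2.25 against 2.23), and the differences were 2.27 ± 1.04 (adjusted p = 0.356) and 2.67 ± 1.04 (adjusted p = 0.366). Psmc2 likewise had no overlap with vehicle at either high dose, with differences of 1.83 and 1.98, although a piece of 130 bases inside Psmc2 was assembled separately, with FPKM 153, in vehicle replicate 4, where Psmc2 is listed at 0. The other 4 ATPases overlapped in both comparisons. Psmc1, Psmc3, Psmc4 and Psmc6 differed by 1.43, 1.58, 0.10 and 0.67 at the high cymopol dose and by 1.67, 1.19, -0.41 and 1.96 at the high extract dose.

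The non-ATPase subunits include the ubiquitin receptor Psmd4, the deubiquitinase Psmd14, the large scaffold Psmd2 and the lid subunit Psmd11. The 9 tested genes had median differences of 1.01 and 1.08 at the high cymopol and extract doses, and without adjustment 0 had p under 0.05 at the high cymopol dose and 2, Psmd2 and Psmd11, at the high extract dose (beside 12.4% and 10.5% of all genes higher). Psmd4, with the highest mean FPKM of the 19S genes, was 0.897, 46.6 and 9.08 in the vehicle group, 20.3, 13.5 and 23.1 at the high cymopol dose, 30.1, 19.2 and 16.3 at the high extract dose, 0, 5.11 and 30.3 at the low cymopol dose and 2.89, 13.7 and 63.8 at the low extract dose. Its groups overlapped in every comparison, with a difference of 1.19 ± 1.34 (adjusted p = 0.737) at the high extract dose. Psmd2 was 0.201, 8.13 and 0 in the vehicle group, 5.85, 13.4 and 14.4 at the high cymopol dose, 20.2, 12.5 and 7.75 at the high extract dose, 0, 7.67 and 7.22 at the low cymopol dose and 0.127, 2.83 and 25.7 at the low extract dose. Only vehicle replicate 4 reached the range of the high-extract values (2.61 ± 1.21, adjusted p = 0.408). Psmd11 was 0.0801, 7.18 and 0 in the vehicle group, 8.27, 7.64 and 4.63 at the high cymopol dose, 18.4, 18.98 and 4.71 at the high extract dose, 0.486, 0.604 and 6.68 at the low cymopol dose and 0.598, 17.2 and 2.77 at the low extract dose. Its high-extract difference of 2.66 ± 1.13 (adjusted p = 0.383) had 1 vehicle library above the lowest high-dose library.

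Psmd14 and Psmd12 had lower means on the log2 scale at the high extract dose than in vehicle. Psmd14 was 0.444, 8.26 and 73.9 in the vehicle group, 0.977, 11.0 and 8.21 at the high cymopol dose, 6.84, 18.8 and 4.99 at the high extract dose, 3.69, 0 and 3.29 at the low cymopol dose and 0, 1.92 and 1.87 at the low extract dose. The highest value, 73.9, stood in vehicle replicate 5, and the differences were -0.73 (adjusted p = 0.791) at the high cymopol dose, -0.04 (adjusted p = 0.996) at the high extract dose and -2.30 ± 1.20 (adjusted p = 1.0) at the low extract dose. In cymopol low replicate 34, where it is listed at 0, a separate locus of 386 bases inside the gene has FPKM 94.6. Psmd12 was 5.88, 21.0 and 0 in the vehicle group, 6.18, 6.32 and 2.08 at the high cymopol dose, 2.28, 2.02 and 1.95 at the high extract dose, 0, 0 and 7.96 at the low cymopol dose and 0, 0.464 and 1.496 at the low extract dose, with a difference of 0.03 at the high cymopol dose and -0.79 ± 1.07 (adjusted p = 0.786) at the high extract dose. Its high-extract values lay close together at 1.95 to 2.28, inside the vehicle range of 0 to 21.0. Psmd3, Psmd6, Psmd7 and Psmd8 differed by 1.33, 1.52, 0.10 and 0.22 at the high cymopol dose and by 1.08, 1.41, 0.46 and -0.03 at the high extract dose. Of these 4 genes Psmd3 was above 0 in all 15 libraries.

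The chaperones that assemble the base of the 19S cap were low. Psmd9 reached 19.6 and Psmd10 reached 7.99 in single libraries, and they differed by 0.06 and 0.94 at the high cymopol dose and by 0.0049 and 0.27 at the high extract dose. All 15 Psmd9 values are of loci assembled over its annotated span, 123169413 to 123250131 on chromosome 5. The RefSeq promoter window of Psmd9 ends at 123228189, far inside that span, so these values may not be of Psmd9 alone. Psmd5 was not tested. Its own row spans 1103 bases of a gene that runs from 34849734 to 34874968 on chromosome 2, and was above 0 in 3 libraries. An assembled locus over the whole gene, not used because the gene had its own row, had FPKM of 1.77, 1.44 and 1.17 at the high cymopol dose, 1.03, 1.19 and 4.46 at the high extract dose, 1.08, 0 and 0 in vehicle, 0, 0 and 3.71 at the low cymopol dose and 0, 1.62 and 5.02 at the low extract dose.

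The activators open the core without the 19S cap. Psme1 and Psme2, the interferon-induced PA28 subunits, lie near each other on chromosome 14. Psme2 (ENSMUSG00000079197, 55587441 to 55591113) had FPKM of 2.77, 9.18 and 0 in the vehicle group, 14.5, 31.6 and 21.3 at the high cymopol dose, 21.1, 33.1 and 10.9 at the high extract dose, 7.25, 10.7 and 22.1 at the low cymopol dose and 0.690, 31.0 and 31.5 at the low extract dose. Its 6 high-dose values, from 10.9 to 33.1, all exceeded the highest vehicle value of 9.18, and the differences were 2.73 ± 1.24 (adjusted p = 0.354) and 2.62 ± 1.24 (adjusted p = 0.415). The low-dose groups reached the high-dose range in 3 of their 6 libraries. Psme1 was 3.02, 15.9 and 0 in the vehicle group, 7.26, 16.3 and 13.7 at the high cymopol dose, 25.3, 10.3 and 5.72 at the high extract dose, 1.34, 0 and 15.3 at the low cymopol dose and 3.89, 6.91 and 20.5 at the low extract dose, with vehicle replicate 4 inside the high-dose range and a difference of 1.63 ± 1.21 (adjusted p = 0.598) at the high extract dose.

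Psme3, the nuclear PA28 gamma, was 2.65, 10.4 and 3.86 in the vehicle group, 4.30, 7.36 and 15.3 at the high cymopol dose, 4.10, 9.81 and 3.53 at the high extract dose, 0.264, 18.2 and 6.32 at the low cymopol dose and 0.184, 3.63 and 4.04 at the low extract dose. It was above 0 in all 15 libraries, and its differences from vehicle ran from -0.96 to 0.61. Psme4, which encodes PA200, was 1.54, 4.73 and 167 in the vehicle group, 3.23, 6.74 and 2.79 at the high cymopol dose, 3.99, 13.1 and 1.93 at the high extract dose, 3.67, 2.73 and 4.11 at the low cymopol dose and 0.0256, 3.05 and 3.91 at the low extract dose. The vehicle value of 167 in replicate 5, the shallowest library, was the highest of any proteasome gene and rests on about 14.8 estimated fragments. Without that library the other values lay between 0.0256 and 13.1. The differences of Psme4 were -1.43 ± 1.21 (adjusted p = 0.597) at the high cymopol dose and -1.19 ± 1.21 (adjusted p = 0.708) at the high extract dose.

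Set side by side, the core genes (13 tested) had median differences from vehicle of 2.35 at the high cymopol dose, 1.64 at the high extract dose, 1.03 at the low cymopol dose and 0.63 at the low extract dose. The regulatory 19S genes (15 tested) had 1.33, 1.19, -0.43 and 0.24, and the 3 immunoproteasome genes 0.99, 1.52, 0.46 and -1.06. The core median was thus above the 19S median in all 4 comparisons, which share their vehicle libraries. Within libraries, mean log2(FPKM + 1) of the core minus that of the 19S genes was -0.48, -0.66 and -0.86 in the vehicle libraries, 0.89, 0.20 and 0.22 at the high cymopol dose, -0.38, 0.13 and 0.01 at the high extract dose, 0.91, -0.32 and 0.09 at the low cymopol dose and -0.72, 0.50 and 0.31 at the low extract dose. The vehicle libraries, deep replicate 4 among them, lay below all 6 high-dose libraries on this measure, as did extract low replicate 26. This contrast was noticed in the data and was not tested. In the deep libraries alone the core medians were 1.01 and 0.30 at the high cymopol and extract doses, and the 19S medians -0.39 and -0.12.

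**Figure D4:**
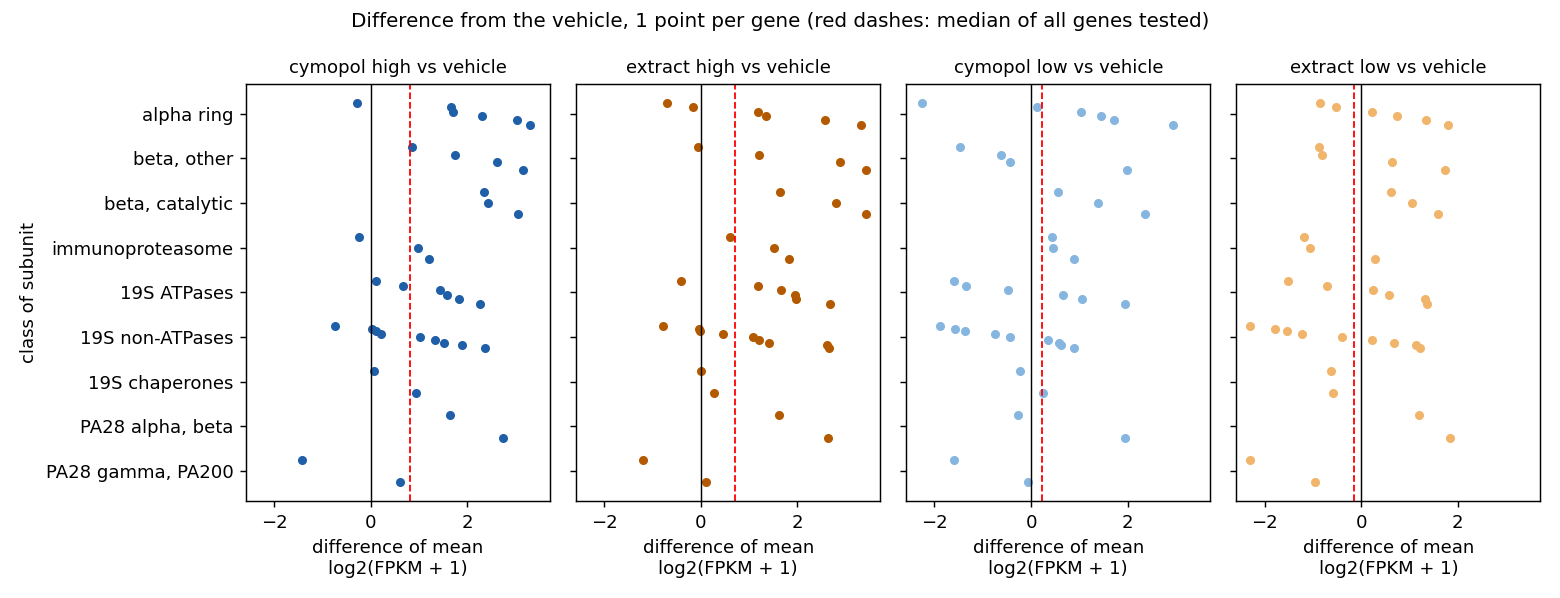
Difference of mean log2(FPKM + 1) from vehicle for each tested proteasome gene (points), by class of subunit (rows) and treated group (panels), with the median of all 11505 genes as a red dashed line. At the high cymopol dose 33 of 37 points lie above 0, all 7 tested genes of the catalytic and other constitutive beta subunits among them, and at the low doses the points scatter around 0.

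No partner of the proteasome passed the test at a high dose. Of 14 listed assembly factors, deubiquitinases, ubiquitin receptors and inhibitors, 11 were tested, 0 were called at the high cymopol dose with 5 at an unadjusted p under 0.05 (all higher, beside 12.4% of all genes), and 0 at the high extract dose with 1 (beside 10.5% of all genes). Usp14, a deubiquitinase bound to the 19S cap, was 0, 0 and 0 in the vehicle group, 15.8, 8.95 and 4.11 at the high cymopol dose, 2.14, 2.47 and 0.986 at the high extract dose, 0, 11.6 and 4.97 at the low cymopol dose and 0, 2.86 and 0.757 at the low extract dose. It was listed at 0 in every vehicle library and above 0 in all 6 high-dose libraries, with a difference of 3.25 ± 0.98 (adjusted p = 0.225) at the high cymopol dose. The list of the NRF1 axis holds Nfe2l1, its processing enzymes and small Maf partners, and also Keap1 and Nfe2l2, which encodes NRF2. Its 11 tested genes had 0 called and 0 with p under 0.05 at either high dose. Their median differences were 0.67 and 1.01, which are thus not of NRF1 genes alone. Nfe2l1 itself was 3.06, 23.1 and 28.2 in the vehicle group, 18.8, 81.5 and 17.4 at the high cymopol dose, 56.1, 23.2 and 19.3 at the high extract dose, 5.58, 5.01 and 29.3 at the low cymopol dose and 1.61, 14.2 and 9.05 at the low extract dose, a difference of 1.13 ± 1.23 (adjusted p = 0.685) at the high cymopol dose and 1.10 ± 1.23 (adjusted p = 0.737) at the high extract dose.

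Among 15 tested genes of ubiquitin and its shuttles, 0 were called, with 1 and 3 higher at an unadjusted p under 0.05 (beside 12.4% and 10.5% of all genes), and the median differences were 1.55 and 1.39. Sqstm1, the autophagy receptor that binds ubiquitin, differed by 1.99 ± 1.23 (adjusted p = 0.476) and 2.73 ± 1.23 (adjusted p = 0.400). The 11 tested genes of MHC class I presentation and the 5 tested of 12 interferon-response genes had 0 called at either high dose. The MHC class I medians were 0.91 and 0.75, close to those of all genes. The NRF2 target genes had 12 tested of 13, 0 called, 4 and 10 with p under 0.05 (all higher) and median differences of 2.24 and 3.09, beside the same 12.4% and 10.5% of all genes higher. Nqo1, an NRF2 target that reduces quinones, was 0.167, 0 and 0 in the vehicle group, 5.15, 5.31 and 4.19 at the high cymopol dose, 22.4, 7.45 and 8.03 at the high extract dose, 0, 0 and 6.64 at the low cymopol dose and 0, 8.96 and 3.23 at the low extract dose. It exceeded every vehicle value in all 6 high-dose libraries, with differences of 2.48 ± 1.03 (adjusted p = 0.322) and 3.53 ± 1.03 (adjusted p = 0.269).

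Markers of the cell types in the sample also varied between libraries. The 11 epithelial markers with a value summed to 95.8 to 2700 FPKM in vehicle, 1742 to 2311 at the high cymopol dose and 1408 to 2176 at the high extract dose, and at most 1 of them was listed at 0 in any of these libraries. Smooth muscle markers summed to 65.2 to 867, 443 to 1013 and 307 to 719 in the same 3 groups, adipocyte markers to 6.7 to 365, 138 to 280 and 21.3 to 71.0, and fibroblast markers to 20.2 to 227, 106 to 231 and 47.6 to 102. The epithelial median differences were 1.91 and 1.26 at the high cymopol and extract doses, of the order of the proteasome medians of 1.52 and 1.35. Their part in the proteasome differences was not tested.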

How the data were processed

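Ribosome-depleted total RNA (90 ng) of the large intestine was made into libraries with a low-input kit, per the labels' protocols. The aligner was STAR 2.4.0j and the build GRCm38.p4, per the submitters' processing notes. The authors deposited 1 table per library with FPKM values and bounds, laid out like a Cufflinks gene table per the file headers; the quantifier's version and settings were not given in the sources used here. Each table mixes annotated genes with loci assembled in that library.

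A gene without an own row took the value of the assembled locus that was its reciprocal best match and shared at least 0.5 of the joint span (GENCODE M21 gene spans). This matching was planned as an alternative and became the main table because own rows alone left 4 of 45 proteasome genes; own rows only became the alternative. The tables hold no counts, so fragments were inferred from how wide each FPKM interval is, which is approximate.

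The scale was log2(FPKM + 1). The 11505 genes that had values in all 15 libraries and reached FPKM 1 in 3 or more were tested with limma 3.58.1 in R 4.3.3, with 1 mean per group, all 15 libraries and an intensity trend. P-values were two-sided and Benjamini-Hochberg adjusted over all genes tested. All 4 comparisons with vehicle share the 3 vehicle libraries. The procedure was checked on simulated data in which the residuals of each gene were shuffled between libraries on their own. Shuffling in this way removes differences between whole libraries, such as depth, so the check does not cover them. Alternatives were another pseudocount (0.1), no filter, median-of-ratios and quantile scaling, fits of the 2 groups alone, own rows only, voom on estimated fragments, each replicate left out and, added after seeing the data, only the 9 libraries of at least 100000 fragments.

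The members and gene lists were chosen with earlier results of these data known. Values in every library are given for the catalytic, immunoproteasome and activator genes, for Psmd2, Psmd4, Psmd11, Psmd14, Psmc5, Psma3 and Psma7, for the 3 members of smallest p in each direction at the high doses and 1 in each other comparison, and for the member of highest mean FPKM in each class. In the other lists up to 3 genes of smallest p were eligible; Vil1, Epcam, Cdx2, Ms4a1, Ptprc, Nfe2l1, Nqo1 and Sqstm1 were named after their values were seen. Promoters are RefSeq sequences (GRCm38.p6).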

Additional observations from a re-analysis of the deposited data

Results flagged for a closer look

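Signal appeared in 5 places that the tests did not use. Psma2, an alpha ring gene without a value in 2 libraries and therefore not kept, reached an FPKM of 15.045 in cymopol high replicate 12, but its row spans 12430 bases, 0.204 of the joint span with the annotated gene, so this is no whole-gene value. It was above 0 in 1 of the 3 vehicle libraries, at 3.77. Psma8, the testis alpha subunit, reached 0.675 in extract low replicate 27 and its row was 0 in the vehicle libraries, although in vehicle replicate 2 there were 2 separate assembled loci inside the gene, the higher with FPKM 70.6. Psmc3ip, which is not a subunit, reached 5.39 in extract low replicate 29 and was listed at 0 in vehicle. The partial row of Psmd5 reached 0.787 in extract high replicate 21, against 0.643 in vehicle replicate 2. One assembled locus covers Psmd1, the largest 19S subunit, together with neighbouring sequence (chromosome 1, 86064387 to 86278284). It reached 29.1 in cymopol high replicate 12, beside 0.326, 8.52 and 27.4 in the vehicle libraries, and its value cannot be given to Psmd1 alone. None of these was tested.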

How the results depend on the processing

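No paired analysis was possible because the groups share no replicate numbers. Among the alternative values, 662 stayed on their side of the threshold or moved by less than the spread, 79 moved, 9 changed sign and 2 became called. No proteasome gene was called under the other alternatives run, and the 9 deep libraries alone, added after seeing the data, gave 1 call, Psmb5, in each high dose against vehicle. The number of genes called, 2 at the high cymopol dose against vehicle, was 7 with the pseudocount of 0.1, 1 without the filter, 0 under median-of-ratios scaling, with only the 2 groups or with own rows only, 121 with voom and 210 in the deep libraries. At the high extract dose against vehicle (1) it was 3, 6 and 3 with the smaller pseudocount, without the filter and under median-of-ratios scaling, 2 under quantile normalization, 0 with 2 groups, 140 with voom and 277 in the deep libraries. At the low doses against vehicle (0), it was 2 for cymopol under either scaling, and 1 for the extract with the smaller pseudocount or median-of-ratios scaling. Between the cymopol doses (1) it was 4 without the filter or with voom and 0 with a smaller pseudocount, either scaling, 2 groups, own rows or deep libraries. Between the extract doses (1) it was 3 without the filter, 2 with voom and 0 with 2 groups or deep libraries.

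Members' medians were 2.93 and 2.83 at the high cymopol and extract doses with the pseudocount of 0.1 (1.77 and 1.65 over all genes). In the deep libraries they were -0.20 and 0.042 (0.23 and 0.14 over all genes), and that between cymopol doses was -0.036 (0.018 over all genes). Quantile normalization gave 0.14 between extract doses (-0.030 over all genes). Core medians with the pseudocount of 0.1 were 4.50 and 3.26 at the high doses and 3.02 and 2.75 between doses of cymopol and extract; voom gave 1.20 at the high cymopol dose, and the deep libraries 1.01, 0.30 and, between cymopol doses, 0.24. Regulatory medians were 2.83 at the high extract dose with the smaller pseudocount, -0.39, -0.12, -1.25 (low extract) and -0.060 (between cymopol doses) in the deep libraries, and 0.10 and 0.18 between extract doses under median-of-ratios and quantile scaling. Immunoproteasome medians with voom were -1.61 and -0.64 at the high doses, -1.83 between cymopol doses and 0.44 between extract doses; with the smaller pseudocount they were 2.96 (high extract), -2.27 (low extract) and 3.66 (between extract doses), and 0.94 between extract doses under quantile normalization. Psmb10 turned to -0.061 at the high cymopol dose under median-of-ratios scaling, Psmb6 to -0.24 there in the deep libraries, and Psmb8 at the high extract dose to -0.11 (quantile), -0.64 (voom) and -1.28 (deep). Psmb5 became called in the deep libraries at 4.00 and 4.37. The cause of these changes was not tested.

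Leaving out 1 library changed no call of a proteasome gene. The number of genes called ranged from 0 to 8 and from 1 to 8 at the high cymopol and extract doses against vehicle, from 0 to 9 and from 0 to 8 at the low doses, and from 0 to 3 between cymopol doses. Vehicle replicate 2 gave 8, 8 and 9 in the first 3 of these comparisons when left out, and vehicle replicate 5 gave 8 at the low extract dose. Psmb8 ranged from -1.06 to 0.70 (highest without vehicle replicate 4) at the high cymopol dose and from -0.31 (without extract high replicate 23) to 1.56 at the high extract dose, and the immunoproteasome median between extract doses from 1.23 to 2.50. In the 3 shallowest libraries at least 18 of the 37 tested genes are listed at 0; the part of depth in the differences was not tested.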
